A study of Mus musculus with 8 samples.

Results

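CXC chemokines are small secreted proteins that direct the migration of leukocytes, and 6 of their genes were followed here in bone marrow-derived macrophages (BMDMs): Cxcl1, Cxcl2, Cxcl3, Cxcl9, Cxcl10 and Cxcl16. The genes were taken by name and matched to the Ensembl identifiers of the count files, which list 54532 genes. All 6 passed the filter on low counts that left 14591 genes for testing. The RNA came from macrophages grown for 7 days from the marrow of mice aged 6 to 8 weeks, in medium holding supernatant of L929 cells, and polyadenylated RNA was sequenced as read pairs. WT mice gave 1 group, and the other 3 groups came from mice lacking Trex1, the exonuclease that clears DNA from the cytosol: Trex1-KO BMDMs with DMSO vehicle, Trex1-KO BMDMs with the STING antagonist H151 (500 nM), and Trex1-KO BMDMs with the STING antagonist SN-011, with 12 h of incubation in each. WT cells also had vehicle, so the antagonists were given only to cells without Trex1. No dose of SN-011 stands in the labels. The study's methods give the same figure for it as for H151, with the unit printed differently. Each group held 2 libraries, which the study describes as independent experiments. The knockout is constitutive, and the labels do not say how many mice stood behind a library.

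Macrophages make CXC chemokines when they sense microbes or tissue damage. Cxcl1, Cxcl2 and Cxcl3 belong to the ELR subgroup, named for the residues glutamate, leucine and arginine before the CXC motif. They act on Cxcr2 and attract neutrophils, and their transcription in macrophages is classically driven by NF-kappaB. Cxcl9 and Cxcl10 act on Cxcr3, attract activated T cells and natural killer cells, and are classical interferon-inducible genes, Cxcl9 mainly through interferon gamma and Cxcl10 also through type I interferon. Cxcl16 is unusual in carrying a mucin-like stalk and a membrane anchor. It serves on the cell surface as a scavenger receptor and adhesion molecule, and its shed form attracts cells bearing Cxcr6. STING, which the antagonists block, is activated by the second messenger that cGAS makes on cytosolic DNA, and signals to both IRF3 and NF-kappaB.

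The genes lie in 3 places of mouse genome build GRCm38. Cxcl3 (ENSMUSG00000029379, chromosome 5, 90786103 to 90789600), Cxcl1 (ENSMUSG00000029380, chromosome 5, 90891241 to 90893115) and Cxcl2 (ENSMUSG00000058427, chromosome 5, 90903871 to 90905938) stand on the plus strand, and the starts of Cxcl1 and Cxcl2 are 12.6 kb apart. Cxcl9 (ENSMUSG00000029417, chromosome 5, 92321347 to 92328079) and Cxcl10 (ENSMUSG00000034855, chromosome 5, 92346638 to 92348889) stand on the minus strand of the same chromosome, with starts of their annotated intervals 25.3 kb apart. Cxcl16 (ENSMUSG00000018920) lies on the minus strand of chromosome 11, from 70453983 to 70459984. All are annotated as protein-coding. The Cxcl2 and Cxcl3 transcripts matched each other at 90% of 561 aligned bases, so part of their reads could be split or dropped in counting, and Cxcl1 matched Cxcl2 at 72.6% of 595 bases. Of the exonic bases, 5.91% of Cxcl10 also lay in exons of Art3 and 18.3% of Cxcl16 in exons of Zmynd15, and reads there cannot be given to either gene with certainty.

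The sequences upstream of 4 members are shown because they hold letters of motifs for interferon-regulated factors or for NF-kappaB. They are from RefSeq, build GRCm38.p6, written 5′ to 3′ on the strand of the gene. Capitals mark matches to GAAANNGAAA, the core of the interferon-stimulated response element (ISRE), to GGGANNTTCC, a kappaB motif, or to the kappaB consensus that allows either purine or pyrimidine at its degenerate places, each searched on both strands. The first is the region chr5:92348890-92349139 on the minus strand, which is the 250 bases before the start of Cxcl10. The others are the bases from -120 to -31 before the start of Cxcl1 (chr5:90891125-90891214), Cxcl2 (chr5:90903779-90903868) and Cxcl3 (chr5:90785981-90786070), all on the plus strand. Positions are counted from the RefSeq start of each gene, which for Cxcl1, Cxcl2 and Cxcl3 is not the start of the interval given above and is furthest from it for Cxcl2.
Cxcl10: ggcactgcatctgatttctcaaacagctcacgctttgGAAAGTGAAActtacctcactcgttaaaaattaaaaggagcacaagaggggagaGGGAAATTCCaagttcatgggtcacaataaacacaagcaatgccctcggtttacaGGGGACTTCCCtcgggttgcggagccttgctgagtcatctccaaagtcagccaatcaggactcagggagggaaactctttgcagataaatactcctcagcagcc
Cxcl1: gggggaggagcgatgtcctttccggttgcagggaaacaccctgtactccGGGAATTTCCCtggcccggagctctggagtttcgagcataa
Cxcl2: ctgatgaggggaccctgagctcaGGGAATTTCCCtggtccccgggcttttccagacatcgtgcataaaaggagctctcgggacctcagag
Cxcl3: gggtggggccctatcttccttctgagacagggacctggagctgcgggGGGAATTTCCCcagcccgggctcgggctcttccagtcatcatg

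The ISRE letters of Cxcl10 stood at -213 to -204 and its kappaB letters at -159 to -150, with a further match to the consensus alone from -104 to -94. Cxcl1, Cxcl2 and Cxcl3 shared the same 11 letters, a kappaB match on each strand in overlapping frames, beginning at -71, -97 and -73. They held no ISRE match in their windows, and Cxcl9 held neither motif in its window. Among 32851 promoter windows over 27025 genes, each from 250 bases before to 50 bases after the start, 3.44% held the ISRE letters, 1.47% the kappaB letters and 8.46% the kappaB consensus. The interferon gamma-activated site letters TTCNNNGAA, held by 8.3% of the windows, were not found in the 5 windows searched. These matches are a description of letters. Cxcl16 had no entry.

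Before any comparison, the libraries stood as follows. Total counts ran from 11845470 to 17284863, and levels are given as CPM, in which each library is scaled by its total and its TMM factor. On this scale a count of 1 stood for 0.0582 to 0.0849 CPM, and the floor of 3 counts used here for 0.175 to 0.255 CPM. The deleted gene gave no check of the labels: Trex1 had 0 counts in all 8 libraries, WT included, and the whole of its 1147 exonic bases lies in exons of Atrip. The 7 macrophage markers summed to between 9073 and 10020 CPM in every library, and lymphocyte markers to less than 1 CPM. The 2 WT libraries differed for the genes followed here. WT replicate 1 was above WT replicate 2 for 6 of 6 CXC members, for 14 of 14 interferon-response genes and for 13 of 13 tested NF-kappaB targets, against 7654 of all 14591 tested genes. Comparisons with WT are therefore given with and without each WT library where that matters.

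Cxcl10 had the largest fitted fold changes of the 6 members between Trex1-KO and each of the other 3 groups. It was counted at 1037 and 890 reads in Trex1-KO, against 351 and 83 in WT, 120 and 248 with H151, and 209 and 145 with SN-011. In normalised units (CPM) the levels were 78.3 and 58.7 in Trex1-KO, 25.8 and 5.63 in WT, 9.78 and 16.7 with H151, and 12.2 and 12.3 with SN-011. Both Trex1-KO libraries lay above all 6 others, and the WT libraries lay on either side of the antagonist libraries. WT replicate 1 held 4.59 times the level of WT replicate 2, while the SN-011 libraries differed by a factor of 1.01.

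Cxcl9, the neighbour of Cxcl10 and the other Cxcr3 ligand, was much scarcer. Its counts were 31 and 2 in WT, 65 and 27 in Trex1-KO, 26 and 22 with H151, and 10 and 16 with SN-011. The Trex1-KO libraries overlapped with WT and with H151, because WT replicate 1 (2.28 CPM) and H151 replicate 1 (2.12 CPM) lay above Trex1-KO replicate 2 (1.78 CPM). Only the SN-011 libraries, at 0.582 and 1.36 CPM, were both below both Trex1-KO libraries. The 2 counts of WT replicate 2 lie under the floor.

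Of the neutrophil attractants, Cxcl2 was the only member with counts above 28. It was counted at 156 and 104 reads in WT, 165 and 233 in Trex1-KO, 91 and 118 with H151, and 97 and 75 with SN-011. These were 11.5 and 7.05 CPM, 12.5 and 15.4 CPM, 7.41 and 7.93 CPM, and 5.64 and 6.37 CPM in the same order. Both Trex1-KO libraries were above all others, and both SN-011 libraries were below all others.

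Cxcl1 had 15 and 8 counts in WT, 22 and 28 in Trex1-KO, 19 and 7 with H151, and 17 and 8 with SN-011. The Trex1-KO libraries, at 1.66 and 1.85 CPM, were above the other 6, whose highest was H151 replicate 1 at 1.55 CPM. Cxcl3 had 11 and 0 counts in WT, 6 and 13 in Trex1-KO, 1 and 7 with H151, and 6 and 0 with SN-011. It entered the test through 2 of 8 libraries, WT replicate 1 and Trex1-KO replicate 2. Its values carry little information: 4 libraries lay above 0.4 CPM, and the 2 libraries at 0 allow up to 0.203 and 0.255 CPM by the floor of 3 counts, which covers counting error only.

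Cxcl16 was the abundant and steady member, with between 2369 and 3709 counts. Its levels in CPM were 191 and 173 in WT, 243 and 245 in Trex1-KO, 211 and 192 with H151, and 204 and 201 with SN-011. The groups stood in order, with Trex1-KO above all others and WT below all others, but the whole range from the lowest to the highest library was narrow. Of the reads summed over the 6 members on the CPM scale, Cxcl16 held 82.2% and 92.8% in WT, 71.3% and 75.7% in Trex1-KO, 91% and 87.7% with H151 and 91.2% and 90.7% with SN-011. Cxcl10 held 22.9% and 18.2% in Trex1-KO and at most 11.1% elsewhere.

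**Figure D1:**
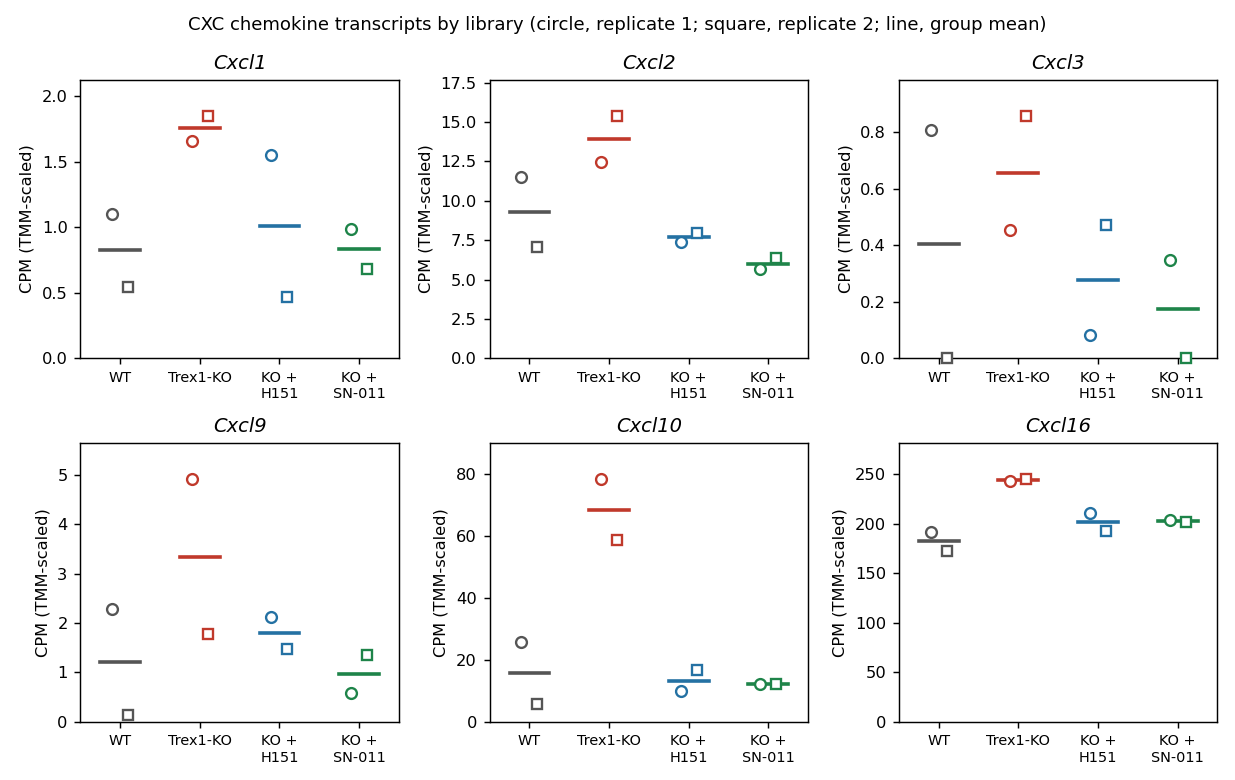
Each panel plots 1 CXC chemokine gene, with the level in CPM on a linear axis from 0 and the 4 groups along the bottom. Circles are replicate 1, squares are replicate 2, and lines are group means of 2 libraries. Cxcl10 shows Trex1-KO at 78.3 and 58.7 CPM above all other libraries, and the WT libraries stand apart at 25.8 and 5.63 CPM, while Cxcl3 stays under 1 CPM throughout.

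The first comparison asks which of these genes differ between Trex1-KO and WT macrophages. Cxcl10 rose to a mean of 68.5 ± 14 CPM in Trex1-KO against 15.7 ± 14 CPM in WT (SD, n = 2), which is 4.40-fold, with an edgeR log2 fold change of 2.14, an SE of 0.40 and an adjusted p of 0.00179. Cxcl16 rose to 244 ± 0.94 CPM against 182 ± 13 CPM in WT (SD, n = 2), which is 1.34-fold, with an edgeR log2 fold change of 0.42, an SE of 0.067 and an adjusted p of 0.000526. These were 2 of 6 members called higher, at a false discovery rate (FDR) under 0.05, while 9.27% of all tested genes were called higher and 7.11% lower. No member was called lower. The log2 fold change was positive for all 6, with a median of 0.93 against -0.0020 over all tested genes. Both Trex1-KO libraries lay above both WT libraries for Cxcl1, Cxcl2, Cxcl10 and Cxcl16. How often this held over all tested genes was not counted.

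The other 4 did not pass the main test. Cxcl2 passed with the edgeR exact test (adjusted p = 0.0296) and with the filter of at least 1 count (edgeR adjusted p = 0.0094). Cxcl9 passed with that filter (edgeR adjusted p = 0.000409). Cxcl2 had a log2 fold change of 0.60 (95% interval 0.16 to 1.03, edgeR adjusted p = 0.0644), Cxcl1 of 1.10 (-0.013 to 2.21, adjusted p = 0.189), Cxcl9 of 1.48 (-0.032 to 2.99, adjusted p = 0.194) and Cxcl3 of 0.75 (-1.38 to 2.88, adjusted p = 0.684). The WT libraries decided several of these values. Without WT replicate 1, the log2 fold change of Cxcl10 was 3.60, that of Cxcl2 0.98 and that of Cxcl9 4.52. The value of Cxcl9 then rests on a WT library with 2 counts, under the floor, and is no bound. Without WT replicate 2, Cxcl10 stood at 1.40 and stayed called, Cxcl2 was at 0.28 (adjusted p = 0.468), Cxcl9 at 0.53 and Cxcl1 at 0.67, none of the 3 called, and Cxcl3 turned to -0.28. Scaled by total counts alone, 946 genes in all were called higher and 1598 lower, against 1352 and 1038 here, with 2 members called.

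The second comparison asks what H151 changed in Trex1-KO cells. Cxcl10 fell to 13.2 ± 4.9 CPM (SD, n = 2), 0.196 times its Trex1-KO level, with an edgeR log2 fold change of -2.35, an SE of 0.40 and an adjusted p of 0.00497. It was the only member called lower, 1 of 6, against a background of 1.84% of tested genes called lower and 0.384% higher. All 6 log2 fold changes were negative, with a median of -0.87 against 0.0012 over all tested genes. Cxcl2 and Cxcl16 lay just outside the threshold, at -0.86 (95% interval -1.31 to -0.41, edgeR adjusted p = 0.0522) and -0.28 (-0.42 to -0.13, adjusted p = 0.0516), and both H151 libraries lay below both Trex1-KO libraries for each. Cxcl1 was at -0.85 (-1.94 to 0.25), Cxcl9 at -0.89 (-2.31 to 0.54) and Cxcl3 at -1.16 (-3.43 to 1.10), and their adjusted p by edgeR was 0.717, 0.812 and 0.881. Single libraries moved these 3: Cxcl1 was at -0.18 without H151 replicate 2 and -1.88 without H151 replicate 1, Cxcl9 was at -0.0001 without Trex1-KO replicate 1 and -1.46 without Trex1-KO replicate 2, and Cxcl3 ran from -2.90 (without H151 replicate 2) to -0.49 (without H151 replicate 1). With DESeq2 the log2 fold change of Cxcl10 was -2.38 and its call was lost (adjusted p = 0.0634), while Cxcl2 (adjusted p = 0.0301) and Cxcl16 (adjusted p = 0.0314) were called. Over the 12 alternatives Cxcl2 was called in 6 and Cxcl16 in 5. Among these was the replicate number taken as a block, with edgeR adjusted p-values of 0.0347 for Cxcl2 and 0.0217 for Cxcl16. Without H151 replicate 1, the log2 fold change of Cxcl16 was -0.34.

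With SN-011, Cxcl10 fell to 12.2 ± 0.11 CPM (SD, n = 2), 0.179 times the Trex1-KO level, with an edgeR log2 fold change of -2.48, an SE of 0.41 and an adjusted p of 0.00341. Cxcl2 fell to 6.01 ± 0.51 CPM against 13.9 ± 2.1 CPM in Trex1-KO (SD, n = 2), with an edgeR log2 fold change of -1.22, an SE of 0.21 and an adjusted p of 0.00579. These were 2 of 6 members called lower, against 2.22% of tested genes called lower and 0.11% higher. Every member had both SN-011 libraries below both Trex1-KO libraries, Cxcl3 from at most 13 counts in a library. How often this held over all tested genes was not counted. The median log2 fold change of the members was -1.44 against 0.0088 over all tested genes. Cxcl16 was at -0.27 (95% interval -0.41 to -0.12, edgeR adjusted p = 0.0580), Cxcl9 at -1.84 (-3.41 to -0.26, adjusted p = 0.313), Cxcl1 at -1.03 (-2.13 to 0.067, adjusted p = 0.447) and Cxcl3 at -1.67 (-4.06 to 0.73, adjusted p = 0.593). Cxcl16 was called in 5 of 12 alternatives, among them DESeq2 (adjusted p = 0.0439) and the edgeR exact test (adjusted p = 0.00919), and Cxcl9 in 2, the exact test (adjusted p = 0.0190) and the filter of at least 1 count (adjusted p = 3.29e-05). Leaving out libraries gave from -2.48 (without SN-011 replicate 2) to -0.95 (without Trex1-KO replicate 1) for Cxcl9 and from -6.20 (without SN-011 replicate 1) to -0.91 (without SN-011 replicate 2) for Cxcl3, where the lowest value sets a library with 0 counts against the others and is no bound. Without SN-011 replicate 1 or replicate 2, neither gene stayed called, with adjusted p-values of 0.116 and 0.0739 for Cxcl10 and 0.159 and 0.0529 for Cxcl2, although their log2 fold changes stayed between -2.49 and -2.47 and between -1.30 and -1.13. The H151 and SN-011 comparisons share the 2 Trex1-KO libraries, so their values are not independent of each other.

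The antagonists were set against each other in 1 pair, over 6 genes. No member was called between SN-011 and H151 by edgeR, none had an unadjusted p under 0.05, and DESeq2 and the edgeR exact test also called 0, while 0.158% of tested genes were called in either direction. For Cxcl10 the SN-011 minus H151 difference was -0.13 on the log2 scale (95% interval -1.13 to 0.87), and for Cxcl16 it was 0.0081 (-0.14 to 0.15). For Cxcl2, where both SN-011 libraries lay below both H151 libraries, it was -0.36 (-0.86 to 0.13). The intervals of Cxcl1 (-1.40 to 1.03), Cxcl9 (-2.66 to 0.76) and Cxcl3 (-3.33 to 2.32) were wide. These intervals do not show that the compounds acted alike. Labels of the SN-011 libraries describe the treatment in other words than those of the other 6 and were entered later, so any batch tied to those libraries cannot be told apart from the compound.

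**Figure D2:**
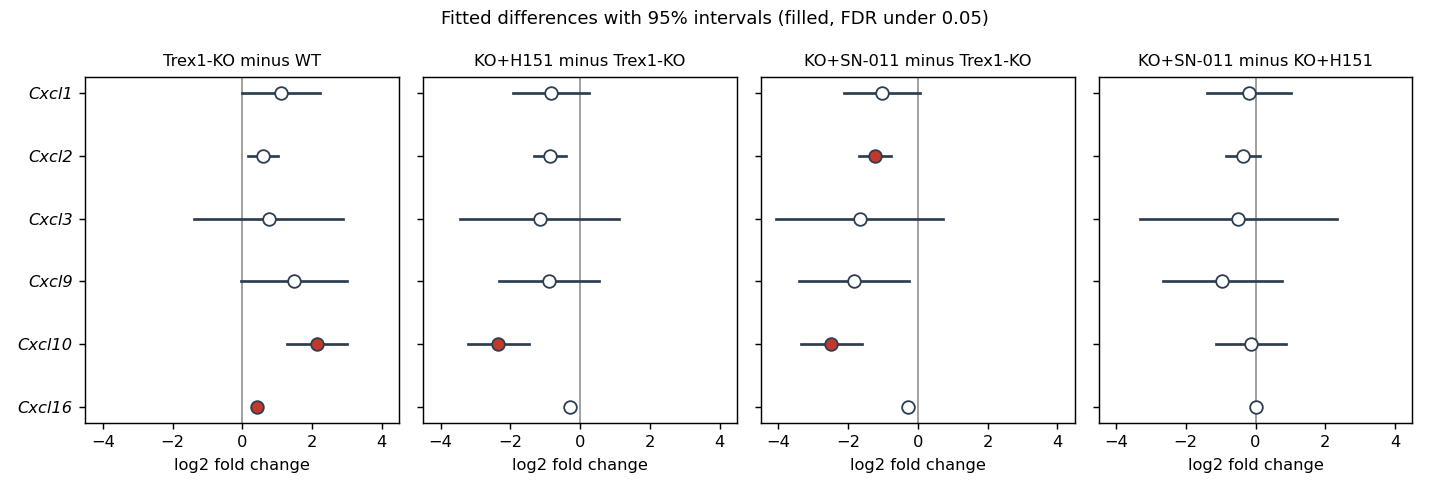
Each panel plots, for 6 CXC chemokine genes, the fitted log2 fold change of 1 comparison (point) with its 95% interval (line), with filled points for an adjusted p under 0.05. Cxcl10 is filled in 3 panels, at 2.14, -2.35 and -2.48, and lies at -0.13 between the antagonists, Cxcl16 has the narrowest intervals and Cxcl3 the widest.

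Against WT, the antagonist-treated Trex1-KO cells showed no called member. With H151 edgeR called 0 of 6 (1 with an unadjusted p under 0.05, 0 by DESeq2 and 0 by the edgeR exact test), beside 11.8% of all tested genes in either direction. With SN-011 edgeR called 0 of 6 (2 with an unadjusted p under 0.05, 0 by DESeq2 and 1 by the edgeR exact test), beside 11.7% of tested genes. The member at an unadjusted p under 0.05 with both compounds was Cxcl16, higher than WT by 0.15 with H151 (95% interval 0.0019 to 0.29) and by 0.16 with SN-011 (0.010 to 0.30) on the log2 scale. Cxcl2 was the other with SN-011, at -0.63 (-1.11 to -0.15, edgeR adjusted p = 0.0952). The fold of Cxcl10 against WT could not be placed. It was -0.21 with H151 (-1.19 to 0.76) and -0.34 with SN-011 (-1.32 to 0.63) on the log2 scale. Without WT replicate 1 it was 1.25 (adjusted p = 0.0331) and 1.12 (adjusted p = 0.0580), and without WT replicate 2 it was -0.95 (adjusted p = 0.0364) and -1.08 (adjusted p = 0.0186), so the direction followed the WT library used. Without WT replicate 2, Cxcl2 with SN-011 was called too, at -0.94 (adjusted p = 0.0151).

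Levels of different genes were compared per kilobase of exon, which here means the union of annotated exons. In Trex1-KO cells the order among CXC ligands was Pf4 (254 ± 20 CPM per kb), Cxcl16 (80.8 ± 0.31), Cxcl10 (30.4 ± 6.1), Cxcl14 (15.5 ± 1.4), Cxcl12 (8.99 ± 0.20), Cxcl2 (6.73 ± 1.0), Ppbp (1.99 ± 0.45), Cxcl9 (1.11 ± 0.73), Cxcl1 (0.935 ± 0.070) and Cxcl3 (0.187 ± 0.082), as mean ± SD of 2 libraries. Of these neighbours, Cxcl9 and Cxcl1 overlapped and the others did not. In WT the order of the members was Cxcl16 (60.2 ± 4.4 CPM per kb), Cxcl10 (6.99 ± 6.3), Cxcl2 (4.48 ± 1.5), Cxcl1 (0.439 ± 0.21), Cxcl9 (0.401 ± 0.50) and Cxcl3 (0.116 ± 0.16). There Cxcl10 overlapped with Cxcl2, Cxcl1 with Cxcl9 and Cxcl9 with Cxcl3, while Cxcl2 and Cxcl1 did not overlap. With the longest protein-coding transcript as the length, a choice made after the annotation had been seen to hold retained introns, Cxcl1 (1.84 CPM per kb) passed Cxcl9 (1.16 CPM per kb) in Trex1-KO, and Cxcl10 stood at 50.6 CPM per kb.

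**Figure D3:**
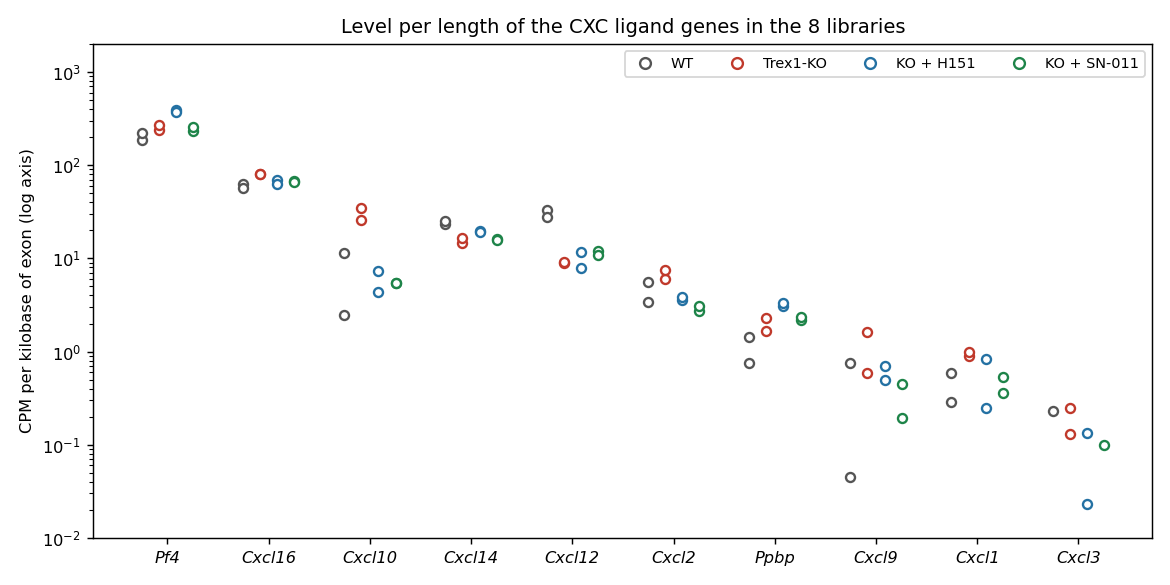
The level of 10 CXC ligand genes is plotted as CPM per kilobase of exon on a log axis, 1 point a library, coloured by group and ordered by the Trex1-KO mean. The Cxcl3 libraries at 0 counts, 1 of WT and 1 of SN-011, are not drawn, and Cxcl10 is the ligand whose Trex1-KO points, with a mean of 30.4, stand farthest above those of the other groups.

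Of the 9 other CXC ligands, 4 were tested. Pf4, platelet factor 4, rose in Trex1-KO from 147 ± 17 to 183 ± 14 CPM (SD, n = 2, log2 fold change 0.31, edgeR adjusted p = 0.0227) and rose further with H151 to 274 ± 12 CPM (0.58, adjusted p = 0.00126). With SN-011 it was at 175 ± 12 CPM, and the difference between the antagonists was called (-0.65, edgeR adjusted p = 0.0117). With H151 its direction was opposite to that of Cxcl10, the 1 member called in that comparison. The megakaryocyte and platelet markers other than Pf4 and Ppbp were low, with Gp1bb at 0 in all 4 groups. Ppbp, the other platelet chemokine, had between 11 and 54 counts and a log2 fold change of 0.86 in Trex1-KO (adjusted p = 0.136).

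Cxcl12, the stromal ligand of Cxcr4, fell in Trex1-KO to 73.5 ± 1.7 CPM against 251 ± 30 CPM in WT (SD, n = 2, log2 fold change -1.77, edgeR adjusted p = 6.88e-07), and no change was called with H151 (80.7 ± 22 CPM, log2 fold change 0.13, adjusted p = 0.920) or SN-011 (93.6 ± 6.1 CPM, 0.35, adjusted p = 0.313). Cxcl14 fell from 44.7 ± 2.4 to 28.3 ± 2.5 CPM (-0.66, edgeR adjusted p = 0.000202). Fibroblast and stromal markers summed over 7 genes to between 2070 and 2267 CPM in WT and between 850 and 1201 CPM in the other 6 libraries. Most of these sums was Col1a1 and Col1a2. Of the 7, 6 were tested and 4 were called lower in Trex1-KO by edgeR (Col1a1, Col1a2, Col3a1 and Pdgfra), beside 7.11% of tested genes. Dcn and Lum had both Trex1-KO libraries above both WT libraries, Dcn by 0.46 on the log2 scale (adjusted p = 0.320 by edgeR) and Lum untested, and Thy1 overlapped between the groups. The part of these cells in the differences was not tested. In bulk RNA, fewer cells of a type and less RNA per cell cannot be told apart. Of the ligands left out of the test, Cxcl11, the remaining Cxcr3 ligand and annotated here as a polymorphic pseudogene, had 0 counts in both WT libraries, 3 and 5 in Trex1-KO, and at most 3 elsewhere. Cxcl5 had at most 3 counts, Cxcl17 at most 1, and Cxcl13 and Cxcl15 had 0 in all libraries.

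Receptors and processing enzymes of the chemokines were read from lists as well. Of 8 receptor genes 2 were tested, and edgeR called neither in any of the 6 comparisons. In WT and Trex1-KO the level of Cxcr4 was 254 ± 29 and 273 ± 19 CPM, and that of Cxcr3 was 6.17 ± 1.5 and 8.99 ± 0.34 CPM (SD, n = 2). Among comparisons with WT, at most 2 receptors had an unadjusted p under 0.05, DESeq2 called none and the edgeR exact test called 1, with SN-011. Of 6 proteases that cut CXC chemokines 5 were tested, and 3 rose in Trex1-KO: Adam17, a sheddase of membrane-bound ligands (log2 fold change 0.35, edgeR adjusted p = 0.00115), Mmp9 (0.58, adjusted p = 0.0457) and Mmp12 (1.02, adjusted p = 0.00157). DESeq2 called 2 of the 5 there and the exact test 3, beside the 9.27% of tested genes called higher. With H151, Mmp8 rose from 9.04 ± 0.83 to 25.2 ± 2.3 CPM (SD, n = 2, log2 fold change 1.47, edgeR adjusted p = 0.000127) and Mmp12 rose by 0.70 (adjusted p = 0.0421). These 2 stood beside 0.384% of tested genes called higher, and DESeq2 called 2 of the 5 and the exact test 3. Mmp9 (-0.70, edgeR adjusted p = 0.0875) and Adam17 (-0.22, adjusted p = 0.116) were not called, with both H151 libraries below both Trex1-KO libraries. With SN-011 edgeR and DESeq2 called 0 (2 with an unadjusted p under 0.05 and 2 called by the edgeR exact test), beside 2.22% of tested genes called lower and 0.11% higher. Adam10, which sheds Cxcl16, had a log2 fold change of 0.051 in Trex1-KO (adjusted p = 0.610). The 6 factors that stabilise or degrade chemokine transcripts, among them Zfp36 and Zc3h12a, gave 0 calls by edgeR, DESeq2 and the exact test and no unadjusted p under 0.05 in any of the 6 comparisons.

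The members were set beside the genes of the pathways that regulate them. All 14 listed interferon-response genes rose in Trex1-KO, beside 9.27% of tested genes, with a median log2 fold change of 2.08. Examples were Irf7, a transcription factor of the interferon response (2.62, edgeR adjusted p = 7.16e-09), Usp18, a brake on interferon signalling (2.63, adjusted p = 5.72e-08), and Ifit3 (2.45, adjusted p = 2.01e-08). H151 lowered 14 of 14 (median -1.16), beside 1.84% of tested genes, and SN-011 lowered 13 of 14 (median -1.06), beside 2.22%, the exception being Irf9 (-0.25, edgeR adjusted p = 0.0788). Relative to WT, 9 of the 14 with H151 and 12 of the 14 with SN-011 were still called higher, beside 990 and 902 of 14591 tested genes. Both counts went down when some single libraries were left out. DESeq2 called 6 and 9 of the 14. Beside the list, Cxcl10 was at 2.14 in Trex1-KO, where it ran from 1.40 without WT replicate 2 to 3.60 without WT replicate 1, at -2.35 with H151 (95% interval -3.22 to -1.48) and at -2.48 with SN-011 (-3.36 to -1.60). The most negative listed values were -1.78 for Ifit2 with H151 and -1.60 for Ifit1 with SN-011, and the difference between Cxcl10 and the list was not tested.

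Of 14 NF-kappaB targets 13 were tested. In Trex1-KO 8 rose, among them Tnf (1.87, edgeR adjusted p = 0.000575), Il1a (1.53, adjusted p = 0.0237), the chemokine Ccl4 (1.09, adjusted p = 3.17e-05) and the adhesion molecule Icam1 (0.66, adjusted p = 0.00284), beside 9.27% of tested genes, and none was called lower. Ptgs2 was at -0.41, with both Trex1-KO libraries below both WT libraries. The median log2 fold change was 0.41. H151 lowered 5 (median -0.50), beside 1.84% of tested genes, and SN-011 lowered 6 (median -0.64), beside 2.22%, and the 4 lowered by both were Nfkbia, Relb, Icam1 and Sod2. SN-011 lowered Tnf (-1.54, edgeR adjusted p = 0.00943), while with H151 its value was -1.11 (adjusted p = 0.0659). Beside these, Cxcl2 was at 0.60, -0.86 and -1.22 in the 3 comparisons, Cxcl1 at 1.10, -0.85 and -1.03, and Cxcl3, from few counts, at 0.75, -1.16 and -1.67. The NF-kappaB counts moved with the settings: leaving out 1 library gave between 4 (without WT replicate 2) and 11 (without WT replicate 1) calls in Trex1-KO, between 2 (without Trex1-KO replicate 2) and 5 with H151, and between 1 (without SN-011 replicate 2) and 5 with SN-011. DESeq2 called 7, 7 and 6 of the 13 in Trex1-KO, with H151 and with SN-011, the edgeR exact test 8, 10 and 10, and the filter of at least 1 count gave 10, 10 and 11.

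**Figure D4:**
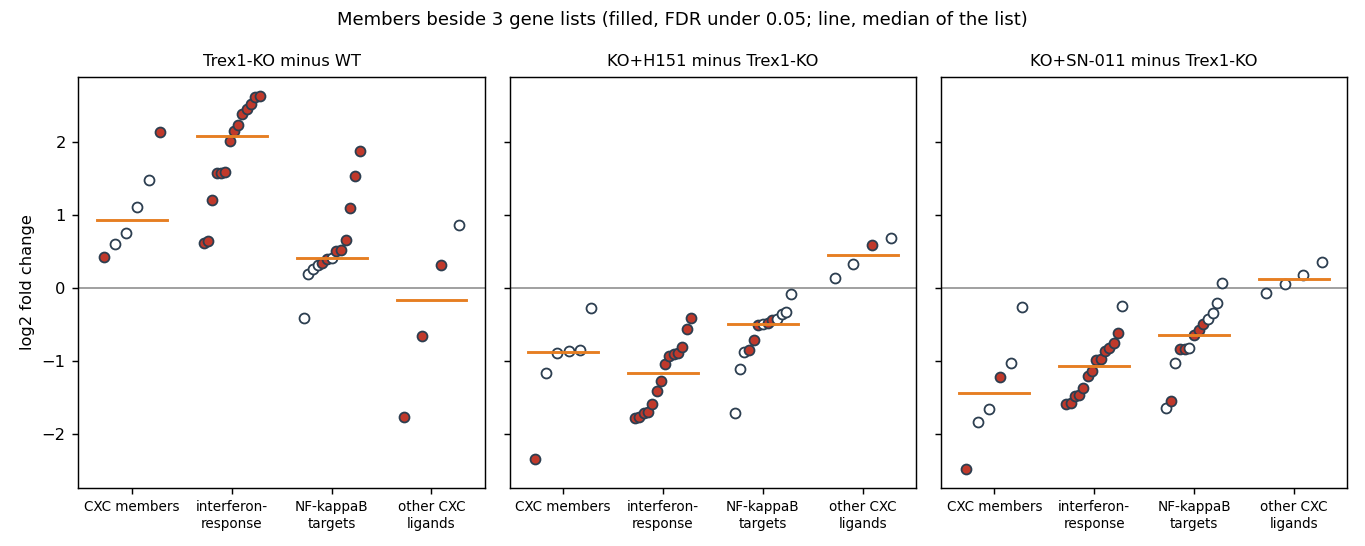
Each dot is the log2 fold change of 1 tested gene, grouped into the 6 CXC members and 3 gene lists, for 3 comparisons, filled for an adjusted p under 0.05, with lines for medians. The interferon-response genes lie wholly above 0 in Trex1-KO (median 2.08) and wholly below 0 with H151 and SN-011 (medians -1.16 and -1.06), the members have medians of 0.93, -0.87 and -1.44 with 2, 1 and 2 of 6 points filled.

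Other cells could contribute to these levels. Neutrophil markers summed over 7 genes to between 7.88 and 8.61 CPM in WT and between 51.1 and 72.1 CPM in Trex1-KO. With H151 they were 65.8 and 66.5 CPM and with SN-011 65.5 and 81.3 CPM, which overlaps with untreated Trex1-KO. The 5 tested neutrophil markers, S100a8, S100a9, Retnlg, Camp and Ngp, were all called higher in Trex1-KO by edgeR, beside 9.27% of tested genes. Their log2 fold changes ran from 1.95 for Retnlg (adjusted p = 0.0113) to 3.71 for Camp (adjusted p = 0.000491). Ly6g, which defines mature neutrophils, had 0 counts in both WT libraries, 1 and 0 in Trex1-KO and at most 3 in any library, all at or under the floor. Endothelial markers were at between 26.1 and 26.3 CPM in WT and between 41.9 and 59 CPM in the others, and dendritic cell markers summed to at most 2.89 CPM with Ccr7 and Cd209a at 0 in all groups. Among the dendritic cell markers, Xcr1 was called higher in Trex1-KO (edgeR adjusted p = 0.00965), with 16 and 15 counts against 3 and 1 in WT, and Zbtb46 was at 0.566 CPM against 1.43 CPM in WT (log2 fold change -1.32, edgeR adjusted p = 0.0951). The part of these cells in the differences between groups was not tested.

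Across the 8 libraries, genes outside the family were ranked by the Pearson correlation of their log2 CPM with each member, as a description of libraries that share groups and depth. For Cxcl10 the highest were Traf2 (r = 0.989), Gbp5 (0.983) and Slc31a2 (0.981). For Cxcl2 they were Clec4e (0.984), Psmd11 (0.973) and Relb (0.970), and for Cxcl16 Kdm3b (0.990), Spred1 (0.983) and Ccdc86 (0.978). For the low-count members the leading values were 0.970 for Gm9531 with Cxcl9, 0.938 for BC004004 with Cxcl1 and 0.931 for Tmem110 with Cxcl3, and they rest on at most 65, 28 and 13 counts of the member in a library.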

How the data were processed

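BMDM libraries were sequenced as read pairs of polyadenylated RNA. Trimmomatic for trimming and HISAT2 with defaults for alignment were used by the authors, who kept uniquely mapped pairs. The deposited values are raw counts per Ensembl gene, 1 column a library, with no normalization. The study's methods name featureCounts, while the submitters' processing notes name HTSeq and mm10. The study's methods describe strand-specific library preparation. Tool versions, annotation release and whether counting used strand are not given in the sources used here, and where it did not, a gene and its antisense partner cannot be told apart.

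Symbols, positions and lengths came from GENCODE mouse release vM21 (GRCm38), which held 54495 of the 54532 identifiers and lacked 37. Counts were tested in R 4.3.3 with the quasi-likelihood F-test of edgeR 4.0.16, two-sided. filterByExpr (minimum count 10, minimum total 15) left 14591 genes. All 8 libraries entered 1 fit with 1 mean a group and TMM scaling, and p-values were adjusted by Benjamini-Hochberg over all tested genes, with calls at an FDR under 0.05. Standard errors are the absolute log2 fold change over the root of F. A 2 against 2 permutation cannot pass such a threshold and was not used. Alternatives were total-count and RLE scaling, other filters, DESeq2 1.42.0, the edgeR exact test, fits of 2 groups, a replicate block, leaving out each library and other gene lengths. The fit was also run on simulated counts with known fold changes and the same spread for every gene. That run does not bear on the calls of members with uneven replicates, such as Cxcl9 and Cxcl10. Similarity was read with blastn 2.17.0+ between longest transcripts. Motifs were searched in RefSeq promoter windows.

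Groups and replicate numbers came from sample titles. The members and lists were chosen with earlier results of these data known. Genes named are the 6 members, listed genes called or needed to account for a list, and the 3 genes most correlated with each member (average log2 CPM of at least 2, pseudocount 1). In the main fit, p-values rest on the spread between libraries within groups, estimated for each gene over all groups together and drawn towards that of other genes. They do not reflect the spread of the compared groups alone. Total counts ran from 11845470 to 17284863.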

Additional observations from a re-analysis of the deposited data

How the results depend on the processing

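The rise of Cxcl10 and Cxcl16 in Trex1-KO was called in 12 of 12 alternatives each, with log2 fold changes from 1.40 to 3.60 and from 0.34 to 0.50. The fall of Cxcl10 was called in 11 of 12 alternatives with H151 (adjusted p up to 0.0634, with DESeq2) and in 10 of 12 with SN-011 (adjusted p up to 0.116), and that of Cxcl2 with SN-011 in 10 of 12 (up to 0.159). The count of members called in Trex1-KO against WT, 2 here, was 4 with every gene of at least 1 count kept and from 2 to 4 when libraries were left out, the highest without WT replicate 1. With H151 against Trex1-KO the count of 1 became 3 with RLE factors, 3 with the filter of at least 1 count, 2 with only the 2 groups, 2 with the edgeR exact test, 2 with DESeq2, and from 1 to 2 when libraries were left out. With SN-011 against Trex1-KO the count of 2 became 4 with the filter of at least 1 count, 4 with the edgeR exact test, and from 0 to 2 when libraries were left out. Against WT, leaving out libraries gave from 0 to 1 members with H151 and from 0 to 2 with SN-011, and for SN-011 the count was 1 with the filter of at least 1 count, 1 with only the 2 groups and 1 with the edgeR exact test. The cause was not tested.

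Taken as a block, the replicate number gave 3 called members with H151, adding Cxcl2 (adjusted p = 0.0347) and Cxcl16 (0.0217), and with SN-011 the block added Cxcl16 (0.0258), while it changed no other call of a member. What a number marks is not in the labels, and there are only 2 pairs. Deviations of same-numbered libraries correlated at 0.290 between Trex1-KO and H151, -0.023 between Trex1-KO and SN-011 and -0.046 between H151 and SN-011.

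Signs turned only when a library was left out, in 22 of 144 such values, none of them a value called with all libraries. On the log2 scale the ranges over left-out libraries were, for Trex1-KO against WT, -0.28 to 6.26 for Cxcl3. For SN-011 against H151 they were -0.85 to 0.85 for Cxcl1, -5.04 to 1.23 for Cxcl3, -0.45 to 0.32 for Cxcl10 and -0.058 to 0.073 for Cxcl16. For H151 against WT they were -0.78 to 0.92 for Cxcl1, -0.58 to 0.12 for Cxcl2, -2.15 to 5.09 for Cxcl3, -0.36 to 3.63 for Cxcl9 and -0.95 to 1.25 for Cxcl10. For SN-011 against WT they were -0.37 to 0.65 for Cxcl1, -5.45 to 4.59 for Cxcl3, -1.31 to 2.68 for Cxcl9 and -1.08 to 1.12 for Cxcl10. Values of Cxcl3 over 4 in size set a library with 0 counts against others, depend on the prior count and are no bounds. Where a group was left with 1 library, that library was assumed to vary like the other groups. With the longest transcript or longest protein-coding transcript as the length, levels per kb moved but the fold changes did not. Depth limits Cxcl1 and Cxcl3, with at most 28 and 13 counts, whose intervals span changes in either direction in most comparisons.

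Over all tested genes, some counts of calls moved by over 1.5 times. With the filter of at least 1 count there were 525 instead of 325 (H151 against Trex1-KO), 679 instead of 340 (SN-011 against Trex1-KO) and 266 instead of 23 (SN-011 against H151). The edgeR exact test gave 572 and 70 in the last 2 comparisons, and for SN-011 against H151 the block gave 44 and DESeq2 38. Trex1-KO against WT had 2390 calls, and 1588 without WT replicate 1. SN-011 against Trex1-KO had 197 without Trex1-KO replicate 1, 121 without SN-011 replicate 1 and 174 without SN-011 replicate 2. SN-011 against H151 had 270 without H151 replicate 2, 2 without SN-011 replicate 1 and 11 without SN-011 replicate 2. H151 against WT had 1726, and 986 and 1112 without WT replicates 1 and 2. SN-011 against WT had 1714, and 975 without WT replicate 1, 1052 without SN-011 replicate 1 and 906 without SN-011 replicate 2. With total-count scaling the split of higher and lower calls turned from 1352 and 1038 to 946 and 1598 for Trex1-KO against WT, from 990 and 736 to 715 and 998 for H151 against WT, and from 902 and 812 to 703 and 1042 for SN-011 against WT.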

Other observations

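Within groups, libraries differed in the interferon-response list and in Cxcl10. WT replicate 1 was above WT replicate 2 for 14 of 14 listed genes, with a median log2 difference of 0.37, and Cxcl10 was 4.59 times higher there. The NF-kappaB targets differed between these libraries as well, in 13 of 13 genes with a median of 0.50. In Trex1-KO replicate 1 was above replicate 2 for 11 of 14 interferon-response genes (median 0.12), and Cxcl10 was 1.33 times higher in replicate 1. With H151 replicate 1 was above replicate 2 for 0 of 14 genes (median -0.32), and Cxcl10 was 1.70 times higher in replicate 2. With SN-011 it was above for 3 of 14 (median -0.15), while Cxcl10 differed by a factor of 1.01. Over all 14591 tested genes the medians of these differences ran from -0.0023 (H151) to 0.0089 (WT). These are values of 2 libraries each, and no test was run on them.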
